A study of Mus musculus with 7 samples.

Results

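The milk fat globule secretion genes are 7 genes whose proteins coat the lipid droplets of milk, belong to the membrane that wraps them or, as the lipase Cel, are released into milk: Btn1a1, Xdh, Plin2, Mfge8, Muc1, Cel and Muc15. They were taken by symbol from the 23930 amplicons of a mouse transcriptome panel that reads 1 amplicon per gene, and 7 of 7 were found. The tissue was the contralateral mammary gland, opposite the tumor-bearing side, of 7 parous mice that the labels call age-matched, and it was taken when a tumor had arisen. The paper describes mice of mixed background and more mice in each group than are measured here. Over those groups, its average age at sacrifice was lower in HMMRTg/Tg than in control mice. In all 7 mice Cre recombinase ran from the Blg promoter, which is active in lactating mammary epithelium, both copies of Brca1 were floxed and 1 copy of Trp53 was lost. The 3 control mice (Blg-Cre;Brca1f/f;Trp53+/−, mice 1, 2 and 3) carried nothing more, and the 4 HMMRTg/Tg mice (7, 8, 9 and 11; Blg-Cre;HMMRTg/Tg;Brca1f/f;Trp53+/−) also carried human HMMR in the Rosa26 locus, silent until Cre removes a stop cassette. RNA came from paraffin sections of whole gland, so that fewer cells of a type and less RNA per cell cannot be told apart.

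Milk fat leaves the secretory cell as a droplet that is enveloped by the apical plasma membrane as it buds into the lumen. Plin2 (perilipin 2) coats the droplet in the cytoplasm, Btn1a1 (butyrophilin) spans the apical membrane, and Xdh (xanthine dehydrogenase), an enzyme of purine breakdown, lies between them and binds the tail of butyrophilin. In mice, loss of butyrophilin or a reduced dose of Xdh disturbs the release of milk fat. Mfge8 (lactadherin) is a secreted protein of the globule surface that also bridges dying cells to phagocytes, Muc1 and Muc15 are membrane mucins of the apical surface and the globule, and Cel is the bile salt-stimulated lipase, which both the exocrine pancreas and the lactating gland release. The caseins, the main proteins of milk, leave the same cells by another route, in secretory vesicles, and their genes are switched on by prolactin through Stat5.

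RefSeq places the members on 6 chromosomes of GRCm38.p6, the assembly of mm10. Cel (gene ID 12613) lies on chromosome 2 at 28555819 to 28563403 and Muc15 (269328) on the same chromosome at 110721494 to 110739537. Muc1 (17829) lies on chromosome 3 at 89229056 to 89233381, Plin2 (11520) on chromosome 4 at 86626910 to 86670217 and Mfge8 (17304) on chromosome 7 at 79133768 to 79149060. Btn1a1 (12231) lies on chromosome 13 at 23456984 to 23465914 and Xdh (22436) on chromosome 17 at 73883895 to 73950397. The 5 caseins, by contrast, form 1 cluster on chromosome 5, from Csn1s1 at 87666208 to the end of Csn3 at 87932550.

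Promoter windows of 300 bases, 250 before and 50 after the start of transcription, were given for 4 of the 7 members (Plin2, Mfge8, Muc1 and Cel) and for 3 of the 5 caseins (Csn1s1, Csn2 and Csn1s2a). The letters TTCNNNGAA, the core of a STAT5 site and the same on both strands, occurred in 3 of the 3 casein windows and in 0 of the 4 member windows, against 2726 of 32851 windows of all genes (8.3%). In Csn1s1 the match began 100 bases before the start (chr5:87666108-87666116, plus strand), in Csn2 93 bases before it (chr5:87699510-87699518, minus strand) and in Csn1s2a, as TTCTTAGAA, 20 bases after it (chr5:87774470-87774478, plus strand). A PPAR site, searched on both strands as AGGTCA repeated in the same direction with 1 base between, occurred in 0 of these 7 windows and in 13 of all windows (0.0396%). The member windows were also richer in G and C, at 55.7% to 64.3%, than the casein windows, at 32.3% to 38.7%, with a median of 52.7% over all windows. A match of letters is a description and not a bound site. Beside a share of 8.3%, 0 of 4 windows says nothing particular of the members, and Btn1a1, Xdh and Muc15 had no window. The 120 bases before the start of a pair of caseins and of a pair of members are shown. Capitals mark TTCNNNGAA, which stands once in each of these caseins and in neither of these members. The stretches are chr5:87699426-87699545 (minus strand) for Csn2, chr5:87666088-87666207 (plus) for Csn1s1, chr2:28563404-28563523 (minus) for Cel and chr7:79149061-79149180 (minus) for Mfge8, each written 5′ to 3′ from RefSeq.
Csn2: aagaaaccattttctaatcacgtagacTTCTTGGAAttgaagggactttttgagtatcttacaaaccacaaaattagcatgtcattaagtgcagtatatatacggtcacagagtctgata
Csn1s1: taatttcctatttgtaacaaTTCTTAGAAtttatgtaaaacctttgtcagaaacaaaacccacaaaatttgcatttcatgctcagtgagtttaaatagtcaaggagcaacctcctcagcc
Cel: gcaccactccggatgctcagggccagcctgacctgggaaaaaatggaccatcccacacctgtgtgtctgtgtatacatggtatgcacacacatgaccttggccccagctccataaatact
Mfge8: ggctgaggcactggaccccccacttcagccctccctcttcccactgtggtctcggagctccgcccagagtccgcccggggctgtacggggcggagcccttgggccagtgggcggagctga

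The libraries held 5532358 to 9345916 reads, and values are reads per 1000000 reads of the library (RPM), with no correction for length or for how well an amplicon is read, so levels are compared between mice and never between genes. A value of 0 would have allowed up to 3 reads, or 0.321 to 0.542 RPM, for counting error only. Mouse Hmmr was read at 1.45, 4.09 and 3.39 RPM in control mice 1, 2 and 3 and at 11.4, 12.2, 2.43 and 6.19 RPM in HMMRTg/Tg mice 7, 8, 9 and 11, with the cross-reading of human HMMR by this amplicon not tested. The 15 markers of luminal epithelium, the cells that make milk, all passed the filter on low values, and Epcam among them was read at 1108 to 2430 RPM. Their summed level was 2254 to 2924 RPM in control and 3196 to 4193 RPM in HMMRTg/Tg mice, without overlap. The 10 markers of skeletal muscle summed to 1759 to 8859 RPM in control and to 20.6 to 102 RPM in HMMRTg/Tg mice. Epcam, with a log2 fold change of 0.78 (limma adjusted p = 0.281), makes up a large part of the luminal sum. Larger values were those of Ovol1 (1.11), Cldn3 (0.99), Ehf (0.98) and Esrp1 (0.91). The keratins differed less, at 0.19 for Krt8, 0.12 for Krt18, −0.04 for Krt19 and 0.07 for Krt7 (limma adjusted p = 0.807 or more). Of the 15 markers 14 were above 0, with a median of 0.50, beside 61.2% of all genes. By limma 5 of the 15 were higher at an unadjusted p under 0.05, beside 6.49% of all genes, and none was called. The part of these marker differences in the values of the milk fat globule genes was not tested, except by the fits with the luminal markers as a covariate. That covariate was the mean of the log2 values of the 15 luminal markers and not their sum. As the luminal level went with genotype here, these fits cannot separate the 2 terms well with 3 against 4 mice. Their values are no genotype differences freed of luminal content. The standard error was 0.40 without and 0.53 with this covariate for Btn1a1, 0.57 and 0.78 for Cel, and 0.70 and 0.57 for Muc15.

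The casein level served as the measure of milk protein expression in each gland. It was the sum of the 5 casein amplicons, 21026.5, 106074 and 6586 RPM in control mice 1, 2 and 3, and 22609, 48425, 7768 and 74631 RPM in HMMRTg/Tg mice 7, 8, 9 and 11. The caseins thus took from 0.659% of all reads in mouse 3 to 10.6% in mouse 2, a 16.1-fold range. Each genotype held glands at both ends of it, and the groups overlapped. On the log2 scale the casein level was 14.58 ± 2.01 (SD, n = 3) in control and 14.78 ± 1.43 (SD, n = 4) in HMMRTg/Tg mice, a difference of 0.20 that was well within the spread (exact permutation test, two-sided, p = 0.914). The sign of this difference rested on single mice, since it was −0.74 without mouse 3, −0.05 without mouse 8 and −0.26 without mouse 11.

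No milk fat globule gene passed the test between genotypes, and the groups overlapped in each. In no member did the 4 HMMRTg/Tg mice lie apart from the 3 control mice, against 9.86% of the 13080 genes tested whose groups did not overlap (6.52% with HMMRTg/Tg mice higher). The test was limma with Benjamini-Hochberg adjustment over all genes, where 0 of 7 members were called and 0 of 7 had an unadjusted p under 0.05. By the same test 0.0382% of all genes were higher (5 genes), 0.367% were lower (48 genes), and 9.71% had an unadjusted p under 0.05 (6.49% higher, 3.22% lower). Among the 48 lower genes were all 10 markers of skeletal muscle (median log2 fold change −6.36). The log2 fold change, HMMRTg/Tg over control, was above 0 in 6 of 7 members with a median of 0.37, beside 61.2% of all genes above 0 and a median of 0.11. The count tests of edgeR and DESeq2 also called 0 of 7, with 0 of 7 at an unadjusted p under 0.05 (DESeq2 gave no p for Muc15), while DESeq2 split its calls over all genes as 79 higher and 187 lower. The median over all genes was lower by 0.12 in DESeq2 and by 0.10 in edgeR, which change both scaling and model, and by 0.09 with TMM scaling alone in limma.

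**Figure D1:**
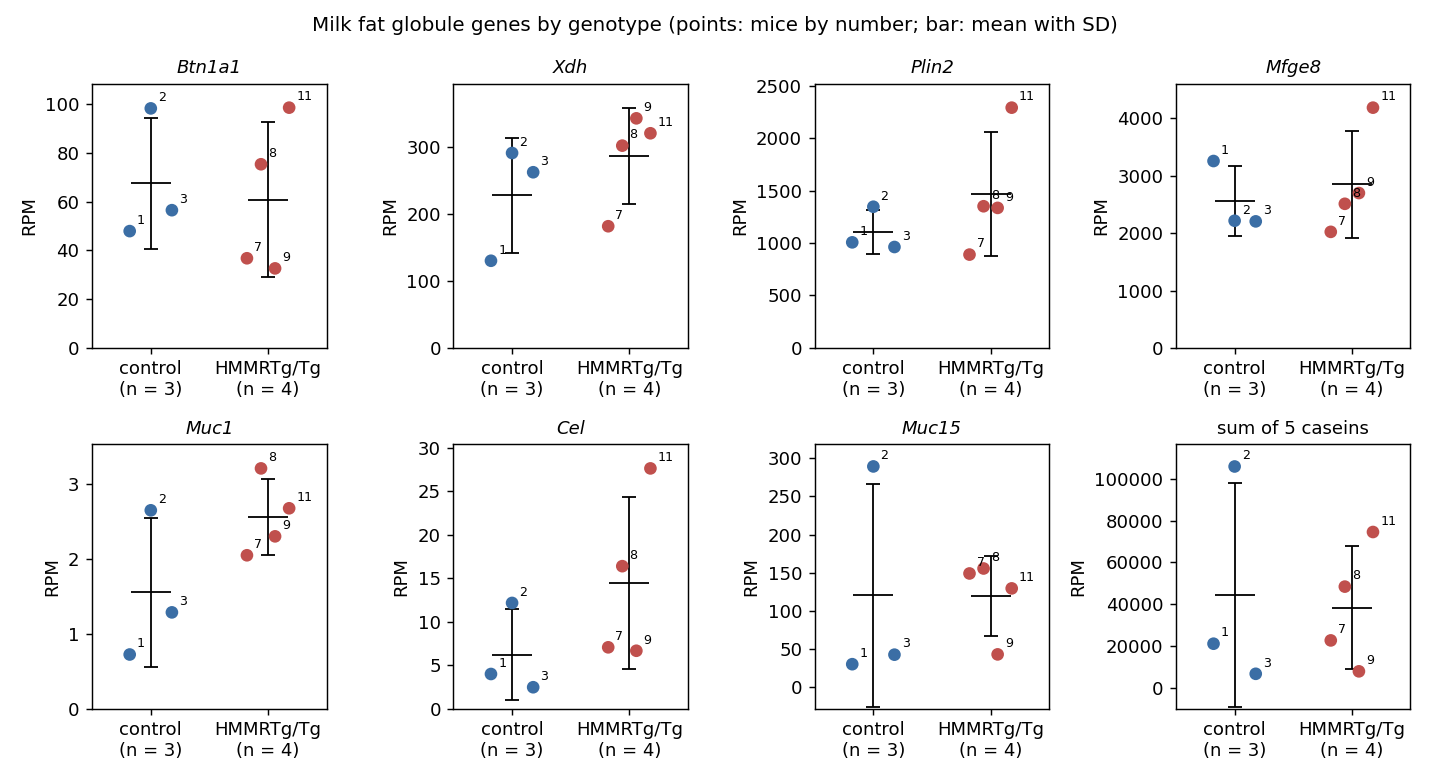
Level in RPM (vertical axis, linear) of the 7 milk fat globule genes and of the summed 5 caseins in control and HMMRTg/Tg mice. Each point is 1 mouse with its number, and the bar is the group mean with its SD (n = 3 and n = 4). In each panel the groups overlap, as for Btn1a1, at 47.9 to 98.3 RPM in control and 32.6 to 98.6 RPM in HMMRTg/Tg mice.

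Of the droplet coat and its apical partners, Btn1a1 was read at 47.9, 98.3 and 56.5 RPM in control mice 1, 2 and 3, and at 36.8, 75.3, 32.6 and 98.6 RPM in HMMRTg/Tg mice 7, 8, 9 and 11. The 2 highest glands, mouse 2 and mouse 11, were of different genotypes and nearly equal. The control mean was 67.5 ± 26.9 RPM (SD, n = 3) and the HMMRTg/Tg mean 60.8 ± 31.7 RPM (SD, n = 4). This was a log2 fold change of −0.23 (standard error, SE, 0.40, limma adjusted p = 0.886) whose sign turned without mouse 2 (0.07) or without mouse 9 (0.01). It was −0.04 without mouse 7, −0.44 without mouse 1, −0.38 without mouse 8, −0.51 without mouse 11 and −0.89 with the luminal markers as a covariate (limma adjusted p = 0.737). Xdh was read at 130.3, 292 and 263 RPM in control mice, and at 182, 303, 343 and 321 RPM in HMMRTg/Tg mice. Control mouse 1 was lowest and the other control mice lay within the HMMRTg/Tg range. Its log2 fold change was 0.37 (SE 0.31, limma adjusted p = 0.736), and it was 0.01 without mouse 1, 0.59 without mouse 2, 0.58 without mouse 7 and −0.20 with the luminal markers as a covariate. Plin2 was read at 1006, 1346 and 962 RPM in control mice, and at 889.5, 1351, 1335 and 2291 RPM in HMMRTg/Tg mice. Mouse 11 stood above the rest and mouse 7, of the same genotype, was lowest, with a log2 fold change of 0.34 (SE 0.31, limma adjusted p = 0.757). It was 0.10 without mouse 11, 0.55 without mouse 7 and 0.19 with the luminal markers as a covariate.

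Mfge8, the globule surface protein, was read at 3258, 2217 and 2206 RPM in control mice and at 2023, 2512, 2699 and 4189 RPM in HMMRTg/Tg mice. It spanned the narrowest range of the 7 genes, 2.07-fold, with mouse 11 highest and mouse 7 lowest, both HMMRTg/Tg. Its log2 fold change was 0.13 (SE 0.31, limma adjusted p = 0.924), −0.07 without mouse 11, 0.03 to 0.32 without each other mouse, and 0.52 with the luminal markers as a covariate (limma adjusted p = 0.801). The mucin Muc1 was close to the limit of the assay, at 0.723, 2.65 and 1.29 RPM in control mice and 2.05, 3.21, 2.30 and 2.68 RPM in HMMRTg/Tg mice. These values stand for 4 to 30 reads per gland, so that counting error alone is wide in the lowest mouse. Mouse 1 and mouse 3 lay below all HMMRTg/Tg mice and mouse 2 among them (log2 fold change 0.54, SE 0.36, adjusted p = 0.666 from limma, 0.29 without mouse 1, 0.83 without mouse 2, and −0.10 with the luminal markers as a covariate).

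Muc15, the other mucin, was read at 29.8, 289 and 42.3 RPM in control mice and at 149, 155, 42.7 and 129 RPM in HMMRTg/Tg mice. Control mice held both the highest and the lowest gland, and the group means were alike at 120.5 ± 146 RPM in control (SD, n = 3) and 119 ± 52.1 RPM in HMMRTg/Tg mice (SD, n = 4). On the log2 scale the difference was 0.56 (SE 0.70, limma adjusted p = 0.830). It was 1.56 without mouse 2 (unadjusted p = 0.0072, adjusted p = 0.232 from limma), and it turned to −0.06 without mouse 1 and to −0.12 in edgeR and DESeq2. With the luminal markers as a covariate it was −1.49 (unadjusted p = 0.0256, adjusted p = 0.578 from limma). Cel was read at 3.98, 12.1 and 2.46 RPM in control mice and at 7.04, 16.4, 6.65 and 27.6 RPM in HMMRTg/Tg mice, from 21 to 165 reads. All HMMRTg/Tg glands lay above control mice 1 and 3, and mouse 2, the gland of highest casein level, lay within their range. In this fit Cel had the largest difference of the members, 6.19 ± 5.21 RPM (SD, n = 3) against 14.4 ± 9.87 RPM (SD, n = 4), a log2 fold change of 1.12 (SE 0.57, unadjusted p = 0.0759, adjusted p = 0.558 from limma). It was 1.67 without mouse 2 (unadjusted p = 0.0128, adjusted p = 0.278 from limma), 1.38 without mouse 9 (unadjusted p = 0.0425, adjusted p = 0.496 from limma) and 0.71 without mouse 3 (unadjusted p = 0.264, adjusted p = 0.655 from limma). With the casein level as a covariate it was 1.01 (SE 0.33, unadjusted p = 0.0132, adjusted p = 0.292 from limma), and with the luminal markers as a covariate 0.29 (adjusted p = 0.959). Tested gene by gene over the 35 splits of 7 mice, the exact permutation p-values (two-sided) were 0.171 for Muc1, 0.229 for Cel, 0.343 for Xdh, 0.514 for Plin2, 0.629 for Muc15 and 0.743 for both Btn1a1 and Mfge8, where 0.0571 is the smallest that 3 mice against 4 can give.

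No member passed the test against the casein level either, although the slopes on it were unequal. Muc15, Cel and Btn1a1 had the steepest slopes on it, Plin2 and Muc1 lay between, and Mfge8 and Xdh were nearly flat. The slope is the log2 change of a gene per doubling of the casein level, fitted with limma over all 7 mice and 13075 genes, the caseins left out. By limma 0 of 7 were called at an adjusted p under 0.05, where 0.0306% of all genes were called with a positive slope (4 genes) and 0% with a negative one. At an unadjusted p under 0.05, 3 of 7 members had a positive slope and none a negative one, beside 2.22% and 5.78% of all genes. This background differed with the scaling and the test: it was 290 positive and 756 negative genes here, 577 and 477 with quantile normalization, 442 and 457 in RPM without the milk protein amplicons and 492 and 513 in edgeR. For the members, edgeR on the reads gave the same count of 3 of 7 positive with 0 of 7 called. All 7 slopes were above 0, beside 35.5% of all genes in this fit, and their median was 0.17 beside −0.04. This background too differed with the scaling: the median over all genes was −0.002 with quantile normalization, −0.005 in edgeR and −0.011 in RPM without the milk protein amplicons.

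**Figure D2:**
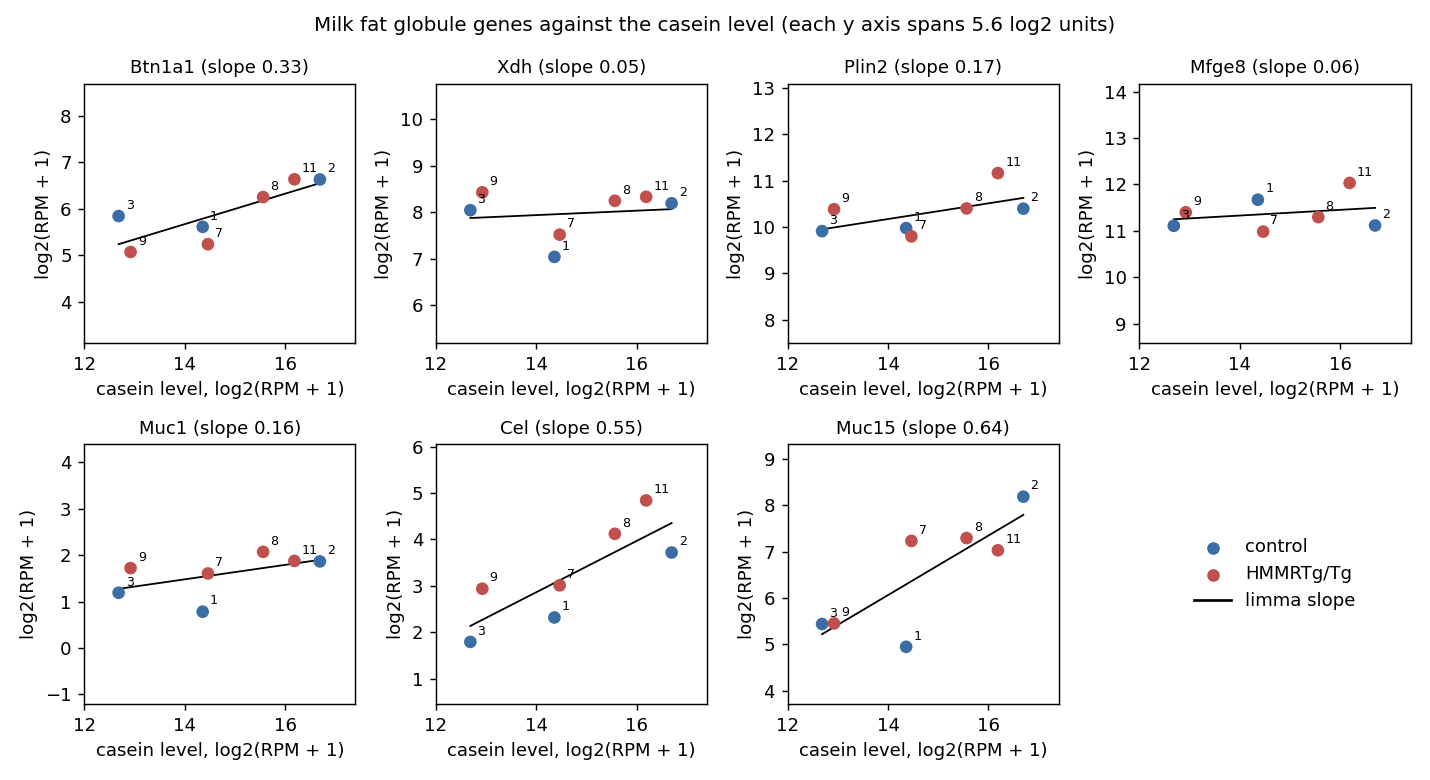
Level of each milk fat globule gene, log2(RPM + 1) on the vertical axis, against the casein level, log2 of the summed casein RPM, on the horizontal axis, with each point 1 mouse of the genotype shown by its color and the line the limma slope. The vertical axes span the same number of log2 units, so that the steepness can be compared: 0.64 per doubling for Muc15, 0.55 for Cel and 0.33 for Btn1a1, against 0.06 for Mfge8 and 0.05 for Xdh.

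Muc15 had a slope of 0.64 (SE 0.15, unadjusted p = 0.00164, adjusted p = 0.350 from limma), a 1.56-fold change per doubling of the caseins, and ranked 33 of 13075 genes from the most positive slope down. The 3 glands of lowest Muc15, mice 1, 3 and 9, were also the 3 of lowest casein level, and mouse 2 was highest in both. Pearson's r between the log2 values was 0.81 (exact permutation test over pairings, p = 0.0444, adjusted over all genes 0.695) and Spearman's rho 0.79 (exact p = 0.0480). Without mice 2 and 3, the glands farthest from the median casein level, r was 0.67, and within genotypes it was 0.82 (exact permutation p = 0.153). With the luminal markers as an added term the slope was 0.48 (adjusted p = 0.204 from limma).

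Cel had a slope of 0.55 (SE 0.16, unadjusted p = 0.00471, adjusted p = 0.425 from limma), or 1.47-fold per doubling, and ranked 51. In control mice its order, mouse 3, mouse 1, mouse 2, was that of the casein level, and in HMMRTg/Tg mice its order, mouse 9, mouse 7, mouse 8, mouse 11, was too. In a pair of glands of like casein level, Cel was 3.98 RPM in control mouse 1 and 7.04 RPM in mouse 7, and in another pair 2.46 RPM in control mouse 3 and 6.65 RPM in mouse 9, while the genotype difference with the casein level as a covariate did not pass the test (limma adjusted p = 0.292). Over all mice r was 0.81 (exact permutation p = 0.0306, adjusted over all genes 0.666) and rho 0.86 (exact p = 0.0238). Without mice 2 and 3 r was 0.80, and within genotypes it was 0.94 (exact permutation p = 0.0139). That p is the smallest that the 144 pairings within genotypes can give. With genotype as an added term the slope was 0.53 (SE 0.12, unadjusted p = 0.00109, adjusted p = 0.215 from limma). Cel is also known from the pancreas, and 8 of the 9 markers of pancreatic acinar cells, Cel among them, were measured. Ctrb1 was at 0 in all 7 glands, Prss2, Cpb1 and Pnlip stayed below 1 RPM in each, Cpa1 reached 1.08 RPM and Cela2a 1.99 RPM, both highest in mouse 1, and Cela1 was read at 5.24 to 15.5 RPM, highest in mouse 9. With Cel counted in, the 8 summed to 12.3 to 19.9 RPM in control and 17.8 to 36.8 RPM in HMMRTg/Tg mice. Cel itself made up 27.6 of the 36.8 RPM in mouse 11 and 12.1 of the 19.9 RPM in mouse 2. The sum thus follows Cel in part and says little of the other markers. The part of those markers in the values of Cel was not tested.

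Btn1a1 had a slope of 0.33 (SE 0.098, unadjusted p = 0.00672, adjusted p = 0.478 from limma), or 1.26-fold per doubling, and ranked 236. In HMMRTg/Tg mice it followed the casein order, from 32.6 RPM in mouse 9 to 98.6 RPM in mouse 11, while among control mice 3 and 1, at 56.5 and 47.9 RPM, the order was crossed. Its r was 0.80 (exact permutation p = 0.0381, adjusted over all genes 0.683) and its rho 0.71 (exact p = 0.0881). Without mice 2 and 3 r was 0.93, and within genotypes it was 0.83 (exact permutation p = 0.0556). Its slope was 0.48 without mouse 3, and with the luminal markers as an added term it was 0.35 (adjusted p = 0.257 from limma).

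The other partners of butyrophilin had smaller slopes, and neither had an unadjusted p under 0.05. Plin2 had a slope of 0.17 (SE 0.099, limma adjusted p = 0.722), an r of 0.57 (exact permutation p = 0.166) and a rho of 0.64 (exact p = 0.139), and the slope was 0.08 without mouse 11. Xdh had a slope of 0.05 (SE 0.11, limma adjusted p = 0.951), an r of 0.14 (exact permutation p = 0.779) and a rho of 0.18. In mouse 9, the gland of lowest casein level among HMMRTg/Tg mice, Xdh was at its highest, 343 RPM, and Btn1a1 at its lowest, 32.6 RPM. The slope of Xdh was −0.05 with the luminal markers as an added term. Muc1 had a slope of 0.16 (SE 0.13, limma adjusted p = 0.814) and an r of 0.53 (exact permutation p = 0.217), on few reads. Mfge8 had a slope of 0.06 (SE 0.10, limma adjusted p = 0.926) and an r of 0.26 (exact permutation p = 0.591), and its slope was −0.02 without mouse 11. Whether the slopes differed between genotypes was tested with an interaction term, which passed for none of the 7 (adjusted p = 0.9999 from limma for each). With 7 mice this test has little power and does not show the slopes to be alike. The difference of slopes was 0.29 (SE 0.18) for Btn1a1 and −0.23 (SE 0.31) for Muc15. The smallest p that the pairings of 7 mice can give is 0.0003968, so that adjustment over 13075 genes leaves these correlations little room to pass and nothing is read from their adjusted values. Of all genes 1.33% had an r of at least 0.8, and the median r was −0.18.

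**Figure D3:**
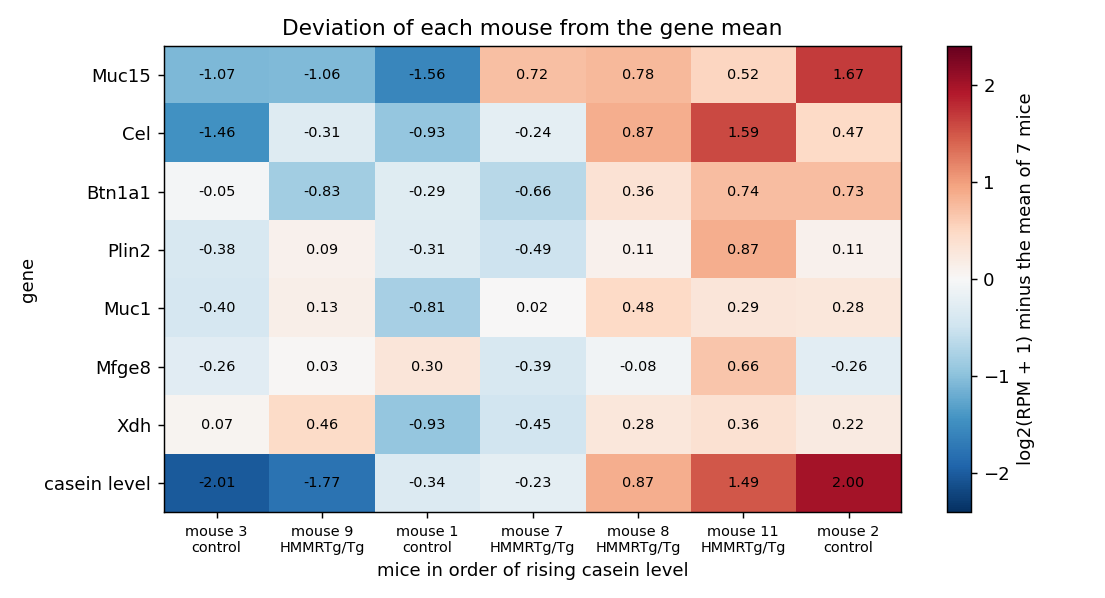
Deviation of each gene from its own mean over the 7 mice, in log2 units by color, with mice in columns in rising order of casein level (3, 9, 1, 7, 8, 11, 2) and the 7 genes and the casein level in rows. Muc15 passes from −1.07 in mouse 3 to 1.67 in mouse 2 and Cel from −1.46 to 1.59 in mouse 11, while Xdh and Mfge8 show no such order.

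The members varied unequally among themselves. Over the 7 mice Cel spanned 11.2-fold, Muc15 9.71-fold and Muc1 4.44-fold, against 3.02-fold for Btn1a1, 2.64-fold for Xdh, 2.58-fold for Plin2 and 2.07-fold for Mfge8, while Csn1s2a spanned 42.6-fold. Of the 21 pairs, Plin2 with Cel had the highest r, 0.85 (exact permutation p = 0.0226, adjusted over the 21 pairs 0.238, rho 0.79). Without the mice farthest from the median of Plin2 its r was 0.90. Muc1 with Cel had an r of 0.81 (exact permutation p = 0.0210, adjusted 0.238), and Mfge8 with Muc15 the lowest, −0.24 (exact permutation p = 0.593). No pair passed at an adjusted p under 0.05, the 3 partners of the tripartite model among them: Btn1a1 with Xdh had an r of 0.37 (exact permutation p = 0.423), Btn1a1 with Plin2 0.64 (exact p = 0.107) and Xdh with Plin2 0.64 (exact p = 0.0659).

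Set among all genes by the r of their log2 values over the 7 mice, each member had nearer neighbours than another member, whose best rank was 28 (Cel, for Plin2) to 490 (Cel, for Muc1). The nearest gene was Muc4 for Cel (r of 0.99), a mucin of epithelial surfaces, Defb1 for Muc15 (0.99), Smim22 for Btn1a1 (0.99), Dusp23 for Plin2 (0.97), Ndufb7 for Xdh (0.98), Ccnd3 for Mfge8 (0.99) and Col4a5 for Muc1 (0.99). Among the 13079 other genes the nearest casein was Csn3 at rank 34 for Btn1a1, Csn1s2b at rank 43 for Muc15 and Csn1s2b at rank 98 for Cel. It was at rank 344 for Muc1 (Csn1s2b), 596 for Plin2 (Csn3), 1791 for Mfge8 (Csn3) and 4071 for Xdh (Csn1s2b). The 5 genes nearest to the mean of the 7 standardized members, of 8949 candidates, were Tmem176b (0.97), Akr7a5 (0.96), Muc4, Impa2 and Dus1l (each 0.95). With 7 mice and this many genes such values describe these glands and carry no test.

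The other genes of milk and of cellular fat, from lists by role, were set on the same scale. Of 9 whey and other milk proteins, 8 had a slope above 0 and 1 was called, Wap (whey acidic protein), which rose with the casein level by 1.45 per doubling (adjusted p = 0.0117 from limma), from 41.6 RPM in mouse 3 to 1996 RPM in mouse 11. Lalba, the regulatory subunit of lactose synthase, had a slope of 0.77 (adjusted p = 0.221 from limma), named after its value was seen. The other 3 genes called, Slc7a5 (0.55, an amino acid transporter), Fkbp11 (0.72, a folding protein of the secretory pathway) and Atp7b (1.31, a copper pump), belong to no list and were looked up after the fit (adjusted p = 0.0117, 0.0181 and 0.0399 from limma). None of the 4 calls remained without mouse 2, without mouse 3 or without the trend in the variance, and the count of calls was 1 without mouse 11, 2 without mouse 7 and 13 without mouse 9.

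**Figure D4:**
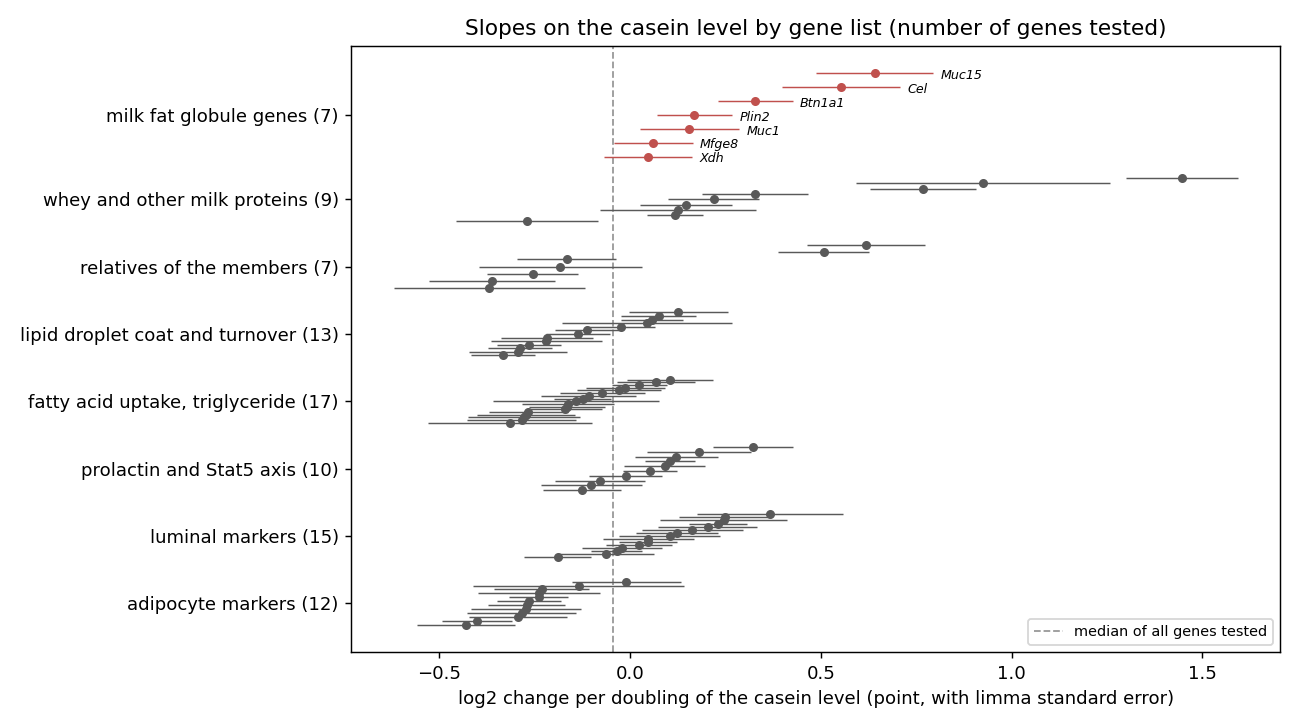
Slope on the casein level (log2 change per doubling, horizontal axis, with bars of the standard error, SE) of the members and of the genes of each list, with the dashed line at the median of all genes, −0.04. The 7 members lie between 0.05 and 0.64, the milk proteins between −0.27 and 1.45, and the adipocyte markers between −0.43 and −0.01.

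No gene of intracellular lipid droplets or of triglyceride assembly passed the test against the casein level. The share of slopes above 0 is to be read beside the 35.5% of all genes in this fit. Counts of negative slopes at an unadjusted p under 0.05 are to be read beside 5.78% of all genes. Both backgrounds hold for this scaling and test only. Of 17 genes of the droplet coat and its breakdown 13 passed the filter, 4 of them with a slope above 0, with a median of −0.14. None was called, and 4 had a negative slope at an unadjusted p under 0.05: Lipe (−0.33, hormone-sensitive lipase), Pnpla2 (−0.29, adipose triglyceride lipase), Cidec (−0.29) and Plin1 (−0.26), both droplet proteins of adipocytes, all named after their values were seen. Of 18 genes of fatty acid uptake and triglyceride assembly 17 were tested, 3 with a slope above 0, with a median of −0.14 and none called. In this list 1 gene, Dgat1 (−0.27), had a negative slope at an unadjusted p under 0.05. Of the adipocyte markers, 3 genes of these lists among them, 0 of 12 had a slope above 0, 6 had a negative slope at an unadjusted p under 0.05, and none was called. Their sum was 13026 RPM in mouse 2 and 37624 RPM in mouse 9, and its r with the casein level was −0.79 (exact permutation p = 0.0389, adjusted over 8 marker lists 0.187). Other marker sums had negative values too, with an r of −0.78 for endothelium (exact permutation p = 0.0468, adjusted 0.187) and −0.65 for macrophages (exact permutation p = 0.10, adjusted 0.268), and 1 of 9 endothelial and 0 of 10 macrophage markers had a slope above 0. For B cells r was −0.52 (exact permutation p = 0.219) and rho −0.79 (exact permutation p = 0.0480, adjusted 0.128). Without mice 2 and 3 the r of B cells was −0.02. Of the B cell markers 0 of 7 had a slope above 0, with a median of −0.71. Plin2 is also a droplet protein of adipocytes and macrophages, and their part in its slope was not tested. The luminal markers, by contrast, had a median slope of 0.10, 11 of 15 above 0 and none called, and their sum had an r of 0.45 with the casein level (exact permutation p = 0.304).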

How the data were processed

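RNA of paraffin sections of contralateral mammary gland was measured in 3 control and 4 HMMRTg/Tg mice, which were grouped and numbered by their labels. The authors read a mouse AmpliSeq transcriptome panel on an Ion Torrent S5 and processed it with the AmpliSeqRNA plug-in, whose version is not given in the sources used here. The submitters' processing notes name mm10 and Transcriptome Analysis Console. The values the authors deposited are named TPM, but each mouse sums to 1000000 and 100% of values under 1000 reads are whole reads (tolerance 0.05), so they are used as RPM. 27 symbols that had turned into dates were restored, and 0 columns were unmapped.

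The test was limma 3.58.1 (R 4.3.3, eBayes with a trend, Benjamini-Hochberg) for genes that reached 1 RPM in 3 mice or more. It used log2(RPM + 1), on which changes of sparsely read genes come out too small. The scripts were tested on simulated data. Alternatives were pseudocounts of 0.1 and 10, no filter or 5 RPM, TMM and quantile scaling, no trend, mouse weights, RPM without milk proteins, leaving out each mouse, casein or luminal level as covariate, other casein measures, edgeR 4.0.16 and DESeq2 1.42.0 on the recovered reads. DESeq2 gave no adjusted p for 277 genes. Named genes were the members, the caseins, called genes of the lists (at most 4 a list) and the 5 nearest in pattern, and others are said to be chosen after their values were seen. Members and lists were chosen with earlier results of these data known. RefSeq tables of GRCm38.p6 gave positions for 7 of 7 members.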

Additional observations from a re-analysis of the deposited data

How the results depend on the processing

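No member was called under any alternative run. The slopes of Cel, Muc15, Btn1a1 and Plin2 and the genotype differences of Cel and Plin2 kept their sign in all of them, with slopes of 0.28 to 0.71 for Cel (lowest adjusted p = 0.136), 0.48 to 0.71 for Muc15 (0.149) and 0.26 to 0.48 for Btn1a1 (0.257, limma). Muc1 could not be tested with the filter at 5 RPM. The cause was not tested for any of the following changes. Genotype calls over all genes, 53 in the report, were 19 with a pseudocount of 10 (3 higher, 16 lower), 266 in DESeq2, 84 with the casein level as a covariate (16 higher, 68 lower), and 26 to 65 with a mouse left out (26 without mouse 1, 28 without mouse 7 or mouse 11). Calls of a slope on the casein level, 4 in the report, were 0 without a trend, 7 with genotype as an added term, and 0 to 13 with a mouse left out: 0 without mouse 2 or mouse 3, 1 without mouse 11, 2 without mouse 7 and 13 without mouse 9 (3 positive, 10 negative). The genotype difference of Muc15 changed sign in edgeR (−0.12), in DESeq2 (−0.12) and with the luminal markers as a covariate (−1.49), and ran from −0.061 to 1.56 with a mouse left out. With the luminal covariate that of Xdh was −0.20 and that of Muc1 −0.10, and the slope of Xdh −0.047. With a mouse left out the genotype difference ran from −0.51 to 0.072 for Btn1a1, from 0.01 to 0.59 for Xdh, from 0.10 to 0.55 for Plin2, from 0.29 to 0.83 for Muc1, from −0.072 to 0.32 for Mfge8 and from −0.74 to 1.26 for the casein level, and the slope of Mfge8 from −0.023 to 0.15, of Xdh from 0.005 to 0.15 and of Plin2 from 0.08 to 0.25. No paired analysis was made, because each gland came from a different mouse and no label pairs the mice. With 3 against 4 mice, 1 amplicon a gene and 4 to 30 reads for Muc1, small differences were not detectable at this depth. No label gives a batch.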

Other observations

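The mucins outside the 7 genes included a pair that moved like Cel, named after their values were seen. Muc4 was read at 13.2, 38.6 and 8.65 RPM in control mice 1, 2 and 3 and at 20.4, 42.7, 19.3 and 110.4 RPM in HMMRTg/Tg mice 7, 8, 9 and 11. Its slope on the casein level was 0.62 per doubling (unadjusted p = 0.00228, adjusted p = 0.372 from limma). Muc20 was read at 88.9, 188, 51.5, 142, 206, 112 and 406 RPM in the same order of mice, with a slope of 0.51 (adjusted p = 0.342 from limma). Of the 16 relatives of the members by family, 7 passed the filter, 2 of them with a slope above 0, and none was called. Edil3, the closest relative of Mfge8, Btn2a2, a butyrophilin, and Muc13 stayed below 1 RPM in all 7 glands.

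Of 12 genes of the prolactin and Stat5 axis, which drives milk protein genes, 10 passed the filter and none was called in either comparison. Elf5, a transcription factor of alveolar cells, was read at 269, 563 and 265 RPM in control mice and at 556, 784, 401 and 811 RPM in HMMRTg/Tg mice, with a slope of 0.32 on the casein level (unadjusted p = 0.0114, adjusted p = 0.510 from limma). Prlr, the prolactin receptor, was read at 622, 334 and 490.5 RPM in control mice and at 267, 237, 203 and 214 RPM in HMMRTg/Tg mice, without overlap (log2 fold change −1.03, adjusted p = 0.126 from limma), where groups did not overlap for 9.86% of all genes tested. Its slope on the casein level was −0.10 (adjusted p = 0.896). Stat5b did not overlap either, but in the opposite direction: 114 to 124 RPM in control and 136 to 183 RPM in HMMRTg/Tg mice. Limma gave Stat5b a genotype difference of 0.33 (adjusted p = 0.5975) and Elf5 one of 0.84 (adjusted p = 0.424), both in log2 units. Of the 10 genes tested 6 were above 0 in this comparison, beside 61.2% of all genes. The Stat5 targets Cish and Socs2 stayed below 1 RPM in all 7 glands. Glycam1, a milk mucin, had a genotype difference of −2.42 (adjusted p = 0.477 from limma) and a slope of 0.92 (adjusted p = 0.562), with values from 25.4 RPM in mouse 9 to 2583 RPM in mouse 2. These genes were also named after their values were seen.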
